A study of Mus musculus with 39 samples.

Results

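The 9 genes described here encode the CatSper calcium channel of the sperm tail and the ion transporters that work beside it. They are Catsper1, Catsper2, Catsper3, Catsper4, Catsperb, Catsperd, Kcnu1, Slc9c1 and Hvcn1, taken by name as genes of this function, and all 9 are among the 21561 Ensembl genes shared by both deposited count tables. They were followed through 24 testis libraries in 8 groups of 3, out of 39 libraries in the series. The mice were males on a C57BL/6J background. WT testes were collected at postnatal days 8, 23 and 40 (P8, P23 and P40), as were testes of INSL3-KI mice, in which the minke whale coding sequence replaced mouse Insl3 at its own locus under the mouse regulatory elements. Testes of INSL3-KO mice, which lack Insl3, were collected at P8 and P23. INSL3 is the Leydig cell hormone that drives testis descent, and the INSL3-KI mice were studied as a model of undescended testes, so that genotype and testis position cannot be told apart. The study describes the 3 libraries of a group as independent biological replicates, and whether a library came from 1 animal or a pool is not given in the sources used here.

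CatSper is a calcium channel found in the plasma membrane of the sperm flagellum. CATSPER1 to CATSPER4 form its pore, and CATSPERB and CATSPERD are among the auxiliary subunits that surround it. Calcium entry through CatSper drives the hyperactivated tail beat needed for fertilization, and loss of a pore subunit makes male mice infertile. Kcnu1 encodes SLO3, the potassium channel that hyperpolarizes sperm, Slc9c1 encodes a sperm-specific sodium/proton exchanger that raises the pH inside the tail, and Hvcn1 encodes the voltage-gated proton channel HV1, which is also used by phagocytes and B cells. These genes, apart from Hvcn1, are regarded as genes of male germ cells that have entered or completed meiosis, a stage reached in the mouse testis only after the first postnatal week.

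The members are spread over 9 chromosomes of the GRCm38 build (GENCODE annotation). Catsper1 lies at chr19:5335741-5344280, Catsper2 at chr2:121392631-121413792, Catsper3 at chr13:55784568-55808998, Catsper4 at chr4:134211970-134227383, Catsperb at chr12:101404653-101626009, Catsperd at chr17:56628143-56664456, Kcnu1 at chr8:25849623-25937939, Slc9c1 at chr16:45535309-45607001 and Hvcn1 at chr5:122206804-122242297. Catsper2 and Catsper4 are on the minus strand and the other 7 on the plus strand. All 9 are protein-coding. Hvcn1 shares 1574 exonic bases with Tctn1 on the opposite strand, and Catsper2 shares 18 with Pdia3, also on the opposite strand. Whether the counting used strand is not given in the sources used here.

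RefSeq promoter sequences (250 bases before to 50 after the start, GRCm38.p6) were at hand for 6 members, and 4 of them are shown because they span the range of CpG content among the members. CpG dinucleotides are in capitals, and the sequences run 5′ to 3′ on the gene's strand.
Catsper2 (chr2:121413743-121414042, minus strand): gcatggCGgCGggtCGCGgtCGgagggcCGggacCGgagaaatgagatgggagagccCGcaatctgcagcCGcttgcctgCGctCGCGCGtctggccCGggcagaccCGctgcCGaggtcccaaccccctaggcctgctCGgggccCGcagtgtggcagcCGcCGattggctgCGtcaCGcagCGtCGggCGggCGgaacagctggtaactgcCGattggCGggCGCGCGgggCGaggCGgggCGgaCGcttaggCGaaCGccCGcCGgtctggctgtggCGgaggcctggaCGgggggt
Catsperb (chr12:101404423-101404722, plus strand): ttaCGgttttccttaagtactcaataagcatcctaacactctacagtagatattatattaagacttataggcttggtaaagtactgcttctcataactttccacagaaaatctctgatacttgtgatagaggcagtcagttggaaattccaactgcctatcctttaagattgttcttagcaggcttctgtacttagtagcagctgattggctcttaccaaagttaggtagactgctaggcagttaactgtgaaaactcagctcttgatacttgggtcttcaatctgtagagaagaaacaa
Catsper3 (chr13:55784329-55784628, plus strand): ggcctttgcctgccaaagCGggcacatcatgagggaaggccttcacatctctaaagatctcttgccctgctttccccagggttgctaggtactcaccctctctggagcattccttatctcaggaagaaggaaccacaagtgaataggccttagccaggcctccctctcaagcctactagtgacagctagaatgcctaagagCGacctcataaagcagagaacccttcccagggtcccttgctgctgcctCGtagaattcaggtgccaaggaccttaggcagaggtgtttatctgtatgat
Catsper4 (chr4:134227334-134227633, minus strand): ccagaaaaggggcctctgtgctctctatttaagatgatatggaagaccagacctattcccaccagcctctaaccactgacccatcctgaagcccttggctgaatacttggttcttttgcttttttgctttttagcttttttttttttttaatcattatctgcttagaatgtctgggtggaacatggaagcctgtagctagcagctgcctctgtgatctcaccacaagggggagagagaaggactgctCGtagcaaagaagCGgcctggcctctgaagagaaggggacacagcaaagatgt
The Catsper2 promoter holds 41 CpG, more than 96.5% of the 32851 promoters in the table, whose median is 7. Catsperb holds 1, Catsper4 holds 2, and Catsper3 and Slc9c1 hold 3 each. Catsperd has entries for a pair of starts, with 29 and 12 CpG. Catsper2 and Catsperd were also the CatSper genes with counts in all 9 P8 libraries, whereas Catsperb, Catsper4 and Slc9c1 had none in most of them. Catsper3, with 3 CpG, had 6 to 11 counts in 8 of the 9 and 0 in the other. The cyclic AMP response element TGACGTCA, searched on both strands, was in none of the 7 member promoters and in 1.79% of all promoters. Its half-site TGACG, whose letters are contained in the full element, occurred once in Catsper2 and 3 times in the first Catsperd entry, and in 20.8% of all promoters. These matches are a description of the letters and not of binding.

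Libraries held 33000204 to 42629270 counts (median 38405047). The targeted gene was checked first. Insl3 had 20183, 20887 and 29799 counts in WT at P40 and 445, 443 and 511 in INSL3-KI, and 20844, 25238 and 23851 in WT at P23 against 52, 66 and 84 in INSL3-KI and 0, 5 and 0 in INSL3-KO. At P8 the libraries labelled INSL3-KO still held 906, 804 and 613 counts, against 2722 to 3524 in WT and 15 to 33 in INSL3-KI, which goes against a full loss, so they are called here the libraries labelled INSL3-KO. The counts stand in 2 tables, and WT at P23 and both INSL3-KO groups are in the second, so that INSL3-KI against WT at P23, and INSL3-KO against WT at P8, compare tables as well as genotypes. Counts were scaled as CPM (counts relative to library totals after TMM scaling over the 24 libraries), and FPKM, which also divides by transcript length, was used to compare genes with each other.

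The libraries carried the markers of testis, and they differed in which germ cells they held. Elongating spermatid markers (12 genes, led by Prm2, Smcp and Tnp2) summed to 16086 to 20040 CPM in WT at P40 and 27760 to 29448 in the libraries labelled WT P23, so these P23 libraries had spermatid transcripts above those of P40. They summed to 142.3 to 1321 CPM in INSL3-KI at P23, 9.887 to 75.01 in INSL3-KI at P40 and 6.407 to 8.004 in INSL3-KO at P23. In WT at P8 the sum was 3.092 to 4.517 CPM. Spermatocyte markers (14 genes, led by Ldhc, Pgk2 and Piwil1) summed to 7309 to 8392 CPM in WT at P40, and to 3283, 651.5 and 566.9 in INSL3-KI replicates 1, 2 and 3. 3 libraries therefore stood apart from the others of their group. They were INSL3-KI P40 replicate 1, INSL3-KI P23 replicate 3 and INSL3-KI P8 replicate 2. P23 replicate 3 had the lowest sum of its group in every germ cell list, though much of the spermatogonia sum was Dmrtb1 (581 ± 228 CPM, SD, n = 3). P8 replicate 2 had a spermatocyte sum of 2416 CPM, against 615.4 and 753.2 in the other libraries of its group. Tests of the members that rest on them are given without them, or with the range over fits that leave out 1 library. Other genes and marker lists were tested with all libraries only. In whole testis, fewer cells of a type and less RNA per cell cannot be told apart.

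In adult WT testis the pore subunits were not present at equal levels. In FPKM at P40, Catsper2 was highest with 132 ± 8.20 (SD, n = 3), followed by Catsper1 with 52.3 ± 5.54, Catsperd with 51.3 ± 1.94, Slc9c1 with 47.6 ± 1.64, Catsper4 with 41.6 ± 6.26, Catsper3 with 33.3 ± 6.14, Catsperb with 22.7 ± 1.31, Kcnu1 with 21.8 ± 2.09 and Hvcn1 with 0.298 ± 0.163. The libraries of Catsper1 and Catsperd overlapped, as did those of Catsper4 and Catsper3 and those of Catsperb and Kcnu1, and the other neighbours in this order did not overlap. Catsper2 thus stood above the other pore genes, whose products join it in the same pore.
In the libraries labelled WT P23 the order was much the same, with Catsper2 at 154 ± 5.75 FPKM and Catsper1 at 63.1 ± 2.08, and with Catsperd, Catsper4, Slc9c1 and Catsper3 between 44.5 and 50.4. Hvcn1 was again lowest, at 3.08 ± 0.229 FPKM.

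**Figure D1:**
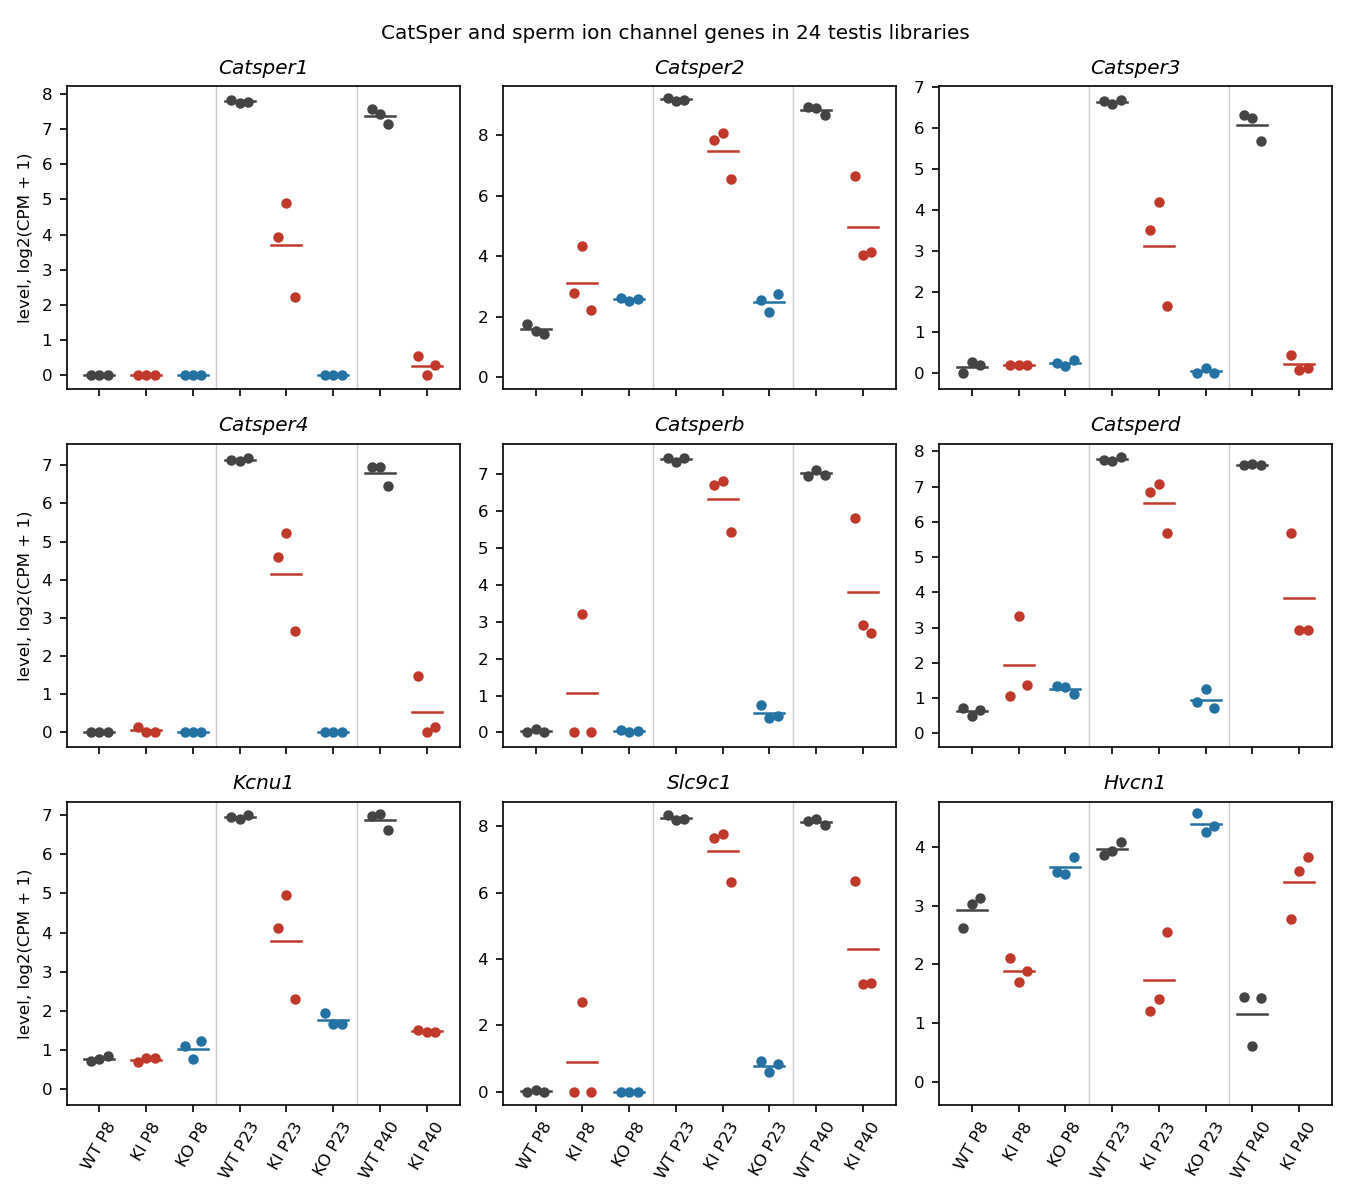
Levels of the 9 genes in each testis library, as log2(CPM + 1) on a linear axis; points are libraries, bars are means of 3, and WT is grey, INSL3-KI red and INSL3-KO blue. All genes except Hvcn1 are high in WT at P23 and P40 and far lower in INSL3-KO at P23, and at P23 the INSL3-KI points lie between, with replicate 1 at P40 (the leftmost red point) set above the other two for Catsper2, Catsperb, Catsperd and Slc9c1.

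The development of WT testis set the scale for the mutants. Between P8 and P40, 8 of 9 members rose (31.9% of the 16892 genes tested were called higher) and Hvcn1 fell (27.8% called lower). A gene was called when it changed at least 2-fold with adjusted p below 0.01 in edgeR's quasi-likelihood test, with Benjamini-Hochberg adjustment over all genes tested. Catsper1 and Catsper4 had 0 counts in all 3 WT libraries at P8, which allows up to 3 counts a library or 0.0708 CPM on average, so their rise to P40 was at least 2351-fold and at least 1567-fold. Catsperb had 0, 3 and 0 counts at P8 and Slc9c1 0, 2 and 0. Pooled over libraries their rises were 5452-fold (exact 95% counting interval 1865 to 26442) and 17820-fold (4932 to 147155), intervals that cover counting error alone.
Catsper2, Catsperd and Kcnu1 were already read at P8, with 97, 85 and 73, 26, 18 and 25, and 26, 32 and 34 counts. They rose by log2 fold changes of 7.78 ± 0.17 (SE), 8.43 ± 0.15 and 7.28 ± 0.17. Against the libraries labelled WT P23, which are in the other table, all 9 members were higher than at P8 (32.8% called higher). From P23 to P40 none of the 8 germ cell members was called, and Hvcn1 alone was lower (1.64% called lower), a change that also crosses the tables.

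At P40 the CatSper genes were low in INSL3-KI testis, but not all to the same degree. Catsper1 had 4290, 4316 and 4190 counts in WT and 18, 0 and 9 in INSL3-KI. Catsper3, another pore subunit, had 1799, 1897 and 1516 in WT and 14, 2 and 4 in INSL3-KI. Catsper4 had 2828, 3093 and 2578 in WT and 68, 0 and 4 in INSL3-KI. Kcnu1 had 2842, 3279 and 2904 in WT, and its INSL3-KI libraries were alike at 72, 71 and 72. For these 4 genes every INSL3-KI library was far below every WT library, and none kept more than 1.61% of the WT mean in CPM. In FPKM, Kcnu1 kept 3.38% on average, against 1.54% in CPM.
Catsper2, the most abundant pore subunit, had 11198, 12119 and 12003 counts in WT and 3855, 623 and 681 in INSL3-KI. The auxiliary subunit Catsperd had 4447, 5033 and 5791 in WT and 1916, 266 and 273 in INSL3-KI. Catsperb, the other auxiliary subunit, had 2812, 3464 and 3731 in WT and 2089, 260 and 226 in INSL3-KI. The exchanger Slc9c1 had 6476, 7582 and 7747 in WT and 3064, 343 and 352 in INSL3-KI. The groups did not overlap for these 4 genes either, but INSL3-KI replicate 1 kept 22.0% of the WT mean of Catsper2, 25.6% of Catsperd, 28.5% of Slc9c1 and 42.55% of Catsperb, while replicates 2 and 3 kept 3.05% to 5.06%.

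edgeR called 5 of 9 members lower in INSL3-KI at P40, where 22.1% of 16677 genes were called lower and 25.6% higher. The called genes were Catsper1 (log2 fold change −9.44 ± 0.86, adjusted p = 3.6e-04), Catsper3 (−8.58 ± 0.57, 1.7e-04), Catsper4 (−7.45 ± 1.30, 0.0027), Kcnu1 (−5.96 ± 0.16, 2.1e-05) and Catsper2 (−3.35 ± 0.79, 0.0091). Catsperd (−3.20 ± 0.85, adjusted p = 0.014), Slc9c1 (−3.10 ± 0.94, 0.023) and Catsperb (−2.52 ± 0.91, 0.041) did not pass by edgeR. The median over the 9 members was −3.35, and over all genes tested 0.09. With 1 library left out, the number of all genes called lower moved as well, from 2268 to 5274. Without INSL3-KI replicate 1, all 8 germ cell members were called lower, with Catsperb at −4.33 and Slc9c1 at −4.95. Without INSL3-KI replicate 2 or 3, Catsper2 lost its call and 4 members remained called, and without any 1 of the 3 WT libraries Catsper2 and Catsper4 lost theirs and 3 members (Catsper1, Catsper3 and Kcnu1) remained.

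The 4 genes that were nearly absent in every INSL3-KI library at P40 were also the lower ones at P23, relative to WT. Catsper1 had 5623, 5228 and 5266 counts in WT at P23 and 530, 978 and 133 in INSL3-KI, which is 6.56%, 13.2% and 1.67% of the WT mean in CPM. Catsper3 stood at 10.4%, 17.4% and 2.15%, Catsper4 at 16.4%, 25.7% and 3.76%, and Kcnu1 at 13.4%, 24.5% and 3.19%. Catsper2 stood at 39.2%, 46.0% and 15.9%, Catsperd at 52.2%, 61.3% and 22.95%, Catsperb at 61.2%, 65.45% and 25.1% and Slc9c1 at 66.1%, 70.8% and 26.2%. Replicate 3 was the lowest library for all 8 genes, and in each library every gene of the first 4 was below every gene of the other 4.
By edgeR, 3 of 9 members were lower in INSL3-KI at P23 (11.8% called lower), and these were Catsper1 (−3.80 ± 0.68, adjusted p = 0.0058), Catsper3 (−3.31 ± 0.66, 0.008) and Hvcn1 (−2.45 ± 0.51, 0.0089). Catsper4 (−2.70 ± 0.61, adjusted p = 0.012) and Kcnu1 (−2.86 ± 0.65, 0.012) missed the threshold, as did Catsper2 (−1.56 ± 0.37, 0.014), and Catsperd, Catsperb and Slc9c1 lay between −1.12 and −0.87. WT and INSL3-KI stand in different tables at this age. The transcript length implied by counts and FPKM, a median over the libraries of a table, agreed within a ratio of 0.962 to 1.03 for the other 8 members. For Kcnu1 it was 2599 bases in the first and 3252 in the second, medians that include libraries with few Kcnu1 counts. In WT, Kcnu1 stood at 122.6 CPM and 20.96 FPKM at P23 (second table). At P40 (first table) it stood at 117.3 CPM and 21.8 FPKM, a like relation of the 2 measures. Without INSL3-KI replicate 3, 6 members were called, without replicate 2, 4, and without replicate 1 or any 1 WT library, none. The number of all genes called lower ranged from 282 to 2661 over these fits. Set against WT at P40, which is in the same table but of another age, the 8 germ cell members were again lower on average in INSL3-KI at P23, and none of the 9 was called.

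**Figure D2:**
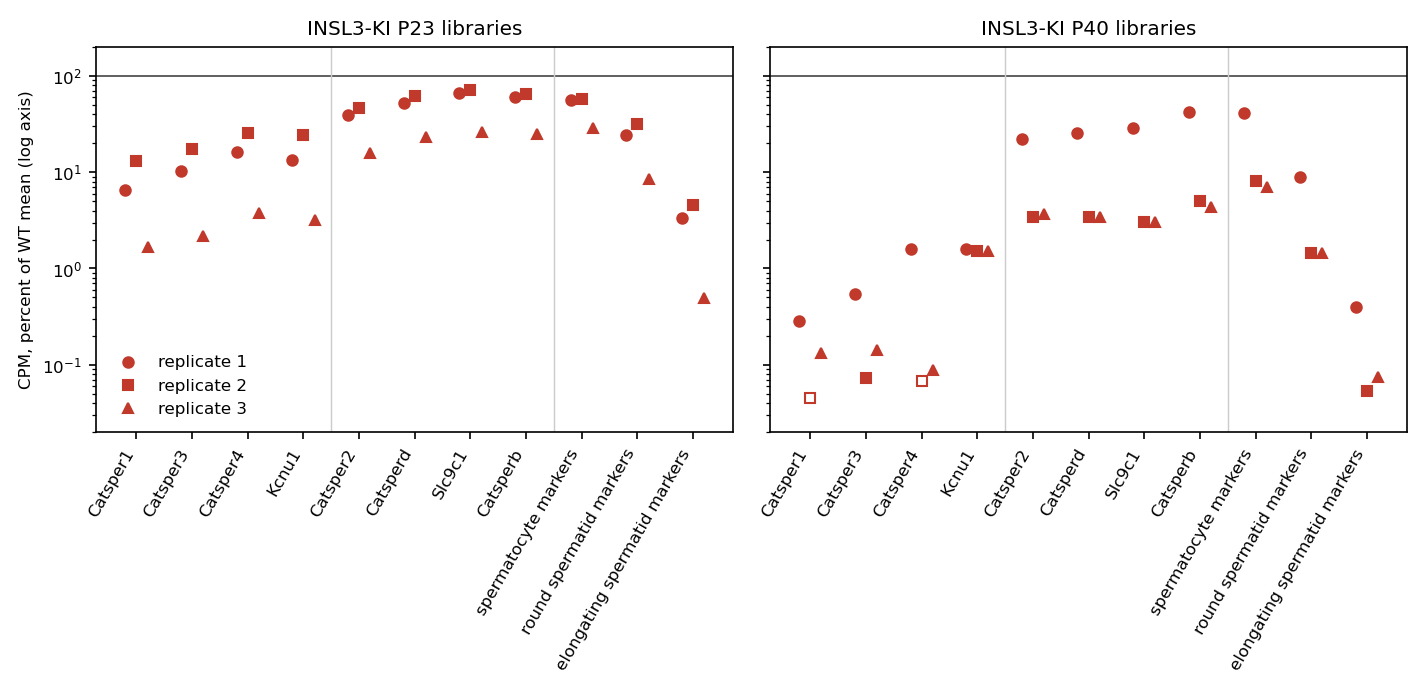
Level of each germ cell member and of 3 summed marker lists in each INSL3-KI library, in percent of the WT mean of the same age on a log axis; symbols are replicates, open symbols are libraries with 0 counts drawn at the level of 3 counts, and the line marks 100%. At P40 Catsper1, Catsper3, Catsper4 and Kcnu1 are at or under 1.61% in all 3 libraries, and Catsper2, Catsperd, Slc9c1 and Catsperb are between 22.0% and 42.55% in replicate 1 alone.

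The contrast between the 4 genes and the other 4 could be read within each library, where the scaling of libraries plays no part. Catsper1, Catsper3, Catsper4 and Kcnu1 together gave 32%, 30.9% and 27.7% of the counts of the 8 genes in WT at P40, and 31.0%, 31.5% and 31.7% in the libraries labelled WT P23. In INSL3-KI at P23 they gave 9.05%, 13.4% and 5.37%. In INSL3-KI at P40 they gave 1.55% (Wilson 95% interval 1.34 to 1.80, counting error only), 4.66% (3.73 to 5.82) and 5.49% (4.48 to 6.71). Every INSL3-KI library at both ages was below every WT library, and the lowest share was in P40 replicate 1, which had the most counts of the other 4 among the INSL3-KI libraries of that age. In INSL3-KO at P23 the share was 28.1%, 28.6% and 22.2%, near that of WT, but there the counts of the 4 genes were those of Kcnu1 (107, 95 and 89) but for 4 of Catsper3. At P8 it ranged from 2.04% to 29% and was again mostly Kcnu1. The division into these groups was made after the values were seen and was given no test.
Marker lists of germ cell stages moved in the same libraries. Relative to WT at P40, the summed spermatocyte markers stood at 41.0%, 8.14% and 7.09% in the INSL3-KI libraries, round spermatid markers at 8.88%, 1.45% and 1.46%, and elongating spermatid markers at 0.402%, 0.0529% and 0.0751%. Of these lists 2 of 14, 10 of 12 and 12 of 12 genes were called lower, with median log2 fold changes of −1.65, −6.93 and −9.21. Much of the spermatocyte sum was 1 gene, Ldhc, with 3971 of 8000 CPM in WT at P40 and 6030 of 11138 in WT at P23 (means). The sum thus fell further than the list's median gene. At P23 the sums of the same lists stood at 56.6%, 58.1% and 28.6%, at 24.4%, 31.6% and 8.48%, and at 3.38%, 4.603% and 0.496%. Their median log2 fold changes there were −0.49, −3.19 and −5.25. Catsper2, Catsperb, Catsperd and Slc9c1 stood above the round spermatid list in every INSL3-KI library at both ages, and Catsper1, Catsper3, Catsper4 and Kcnu1 lay between the round and the elongating spermatid lists at P23. At P40 this did not hold throughout, since Kcnu1 in replicates 2 and 3 (1.516% and 1.502%) was above the round spermatid list. Catsper1 in replicate 1 (0.283%) was below the elongating list, as were Catsper1 and Catsper4 in replicate 2, with 0 counts each. The part of germ cell numbers in the members' changes was not tested.

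**Figure D3:**
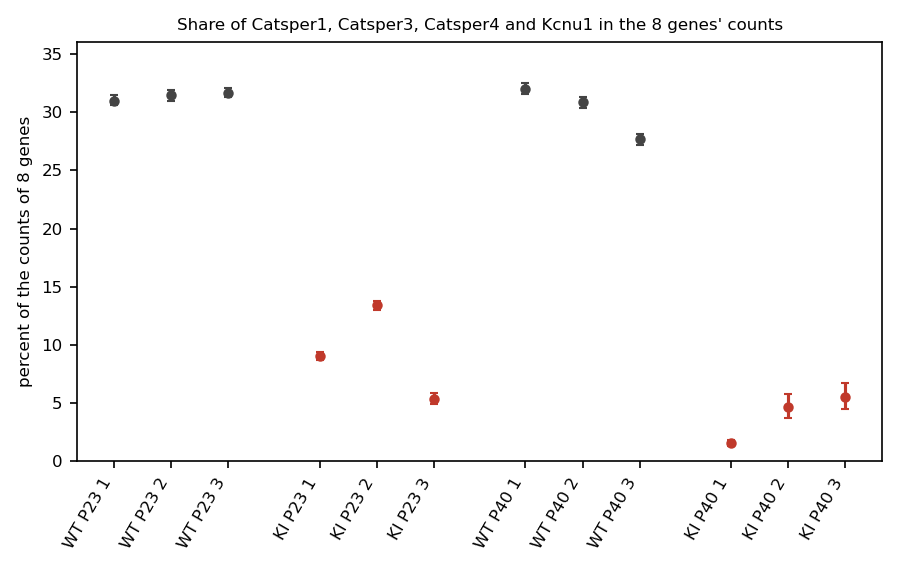
Share of Catsper1, Catsper3, Catsper4 and Kcnu1 in the counts of 8 germ cell members, for each library of WT (grey) and INSL3-KI (red) at P23 and P40; bars are Wilson 95% intervals for counting error. WT libraries lie between 27.7% and 32%, INSL3-KI libraries between 5.37% and 13.4% at P23 and between 1.55% and 5.49% at P40.

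In INSL3-KO testis at P23 the 8 germ cell members were far below WT, and here both groups stand in the same table. The WT side is the libraries labelled WT P23, whose elongating spermatid markers were above those of WT at P40. Catsper1 and Catsper4 had 0 counts in all 3 INSL3-KO libraries, against 5623, 5228 and 5266 and 3477, 3365 and 3529 in WT, and were at least 2972-fold and at least 1913-fold lower. Catsper3 had 0, 4 and 0 counts against 2509, 2333 and 2478, a pooled ratio of 3049-fold (exact 95% counting interval 1190 to 11195).
Slc9c1 had 7961, 7151 and 7228 counts in WT and 34, 22 and 33 in INSL3-KO, Catsperb had 4286, 3934 and 4176 and 25, 14 and 15, and Catsperd had 5307, 5183 and 5529 and 32, 60 and 27. Catsper2 kept 183, 151 and 237 counts of 14999, 13854 and 13979, and Kcnu1 kept 107, 95 and 89 of 3044, 2894 and 3063. All 8 were called lower (33.4% called lower), with log2 fold changes of −8.64 ± 0.12 for Slc9c1, −8.50 ± 0.14 for Catsperb, −7.74 ± 0.15 for Catsperd, −6.90 ± 0.13 for Catsper2 and −5.62 ± 0.10 for Kcnu1, and adjusted p at or under 3.8e-11 for all 8 by edgeR. The members' median was −8.50 and that of all genes 0.06. Beside this, summed spermatocyte markers were at 2.57% to 2.74% of WT, round spermatid markers at 0.337% to 0.380% and elongating spermatid markers at 0.0223% to 0.0279%. All 38 genes of the 3 lists were called lower, with median log2 fold changes of −3.77, −10.07 and −12.09.

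INSL3-KI testis at P23 held more CatSper transcripts than INSL3-KO testis of that age. By edgeR, 7 members were higher in INSL3-KI (25.2% called higher) and Hvcn1 was lower (13.0% called lower), with the groups in different tables. Catsper1 and Catsper4 were at least 212-fold and at least 293-fold higher, since INSL3-KO had no counts. Slc9c1 differed by 7.82 ± 0.53 on the log2 scale, Catsperb by 7.58 ± 0.54, Catsperd by 6.68 ± 0.52 and Catsper2 by 5.39 ± 0.48. Kcnu1 differed by 2.81 ± 0.69 and its adjusted p of 0.01 was not under the threshold. Without INSL3-KI replicate 1, Catsper1 (adjusted p = 0.013) and Catsper4 (0.011) lost their calls, and without any 1 of the INSL3-KO libraries Hvcn1 lost its call. Over the fits with 1 library left out, 2923 to 4902 of all genes were called higher and 723 to 3599 lower.

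Within INSL3-KI testis, 3 members rose from P8 to P23 and none passed the test from P23 to P40. From P8 to P23, Catsper3 (log2 fold change 5.89 ± 0.87), Catsper4 (9.23 ± 1.25) and Kcnu1 (4.45 ± 0.76) were called higher (5.70% called higher), and Catsper1, with 0 counts at P8, was at least 232-fold higher with an adjusted p of 0.01 that was not under the threshold. Leaving out any 1 library but INSL3-KI P23 replicate 3 or P8 replicate 2 took the number called from 3 to 0, and leaving out either of these took it to 5 or 6. The number of all genes called higher ranged from 0 to 2869 over these fits. From P23 to P40, 8 of 9 members were lower on average, Catsper1 by −6.08 ± 1.27, Catsper3 by −5.86 ± 1.08, Catsper4 by −5.14 ± 1.58, Kcnu1 by −3.21 ± 0.72 and the other 4 by −2.37 to −1.96. None was called by edgeR, with 0% of 16328 genes called lower and 0% called higher. With any 1 library left out, edgeR again called 0 genes lower and 0 higher. Unadjusted p was under 0.05 for 7 members and for 7615 genes, and DESeq2 called 3 members and 874 of all genes lower. From the P8 libraries labelled INSL3-KO to INSL3-KO at P23, Catsperb, Kcnu1 and Slc9c1 were called higher (12.0% called higher), from very low levels, and 0 of the 3 in 1 fit over all groups. Slc9c1 went from 0 counts to 34, 22 and 33, at least 11.6-fold, and Kcnu1 from 1.07 ± 0.325 to 2.40 ± 0.396 CPM (SD, n = 3), while Catsper2 stayed at 4.98 ± 0.207 and 4.70 ± 1.14 CPM.

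**Figure D4:**
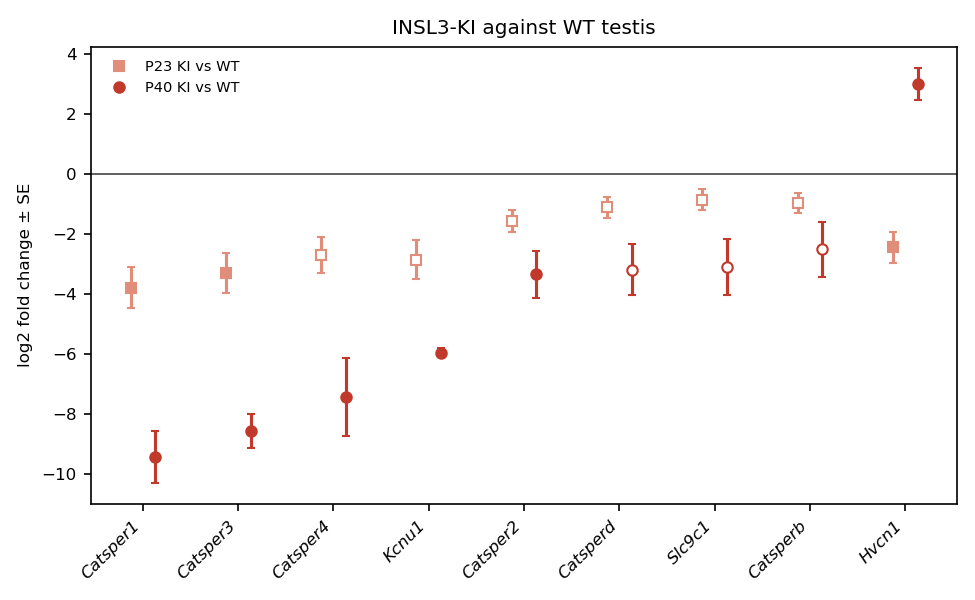
Fold changes of the 9 members in INSL3-KI against WT testis at P23 (squares, groups in different tables) and P40 (circles, same table), as log2 fold change with SE from edgeR; filled symbols were called. The 4 genes at the left reach −5.96 to −9.44 at P40, the next 4 reach −2.52 to −3.35, and Hvcn1 changes side between the ages.

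At P8, before meiosis is completed, most members were at or near 0. Catsper1 had no counts in any of the 9 libraries, Catsper4 had 4 counts in 1 INSL3-KI library, and Catsper3 had between 0 and 11. Only Catsper2, Catsperd, Kcnu1 and Hvcn1 had enough counts to be tested in the genotype comparisons. In INSL3-KI against WT none was called (3.25% of 15702 genes called lower and 3.03% higher), although 3 of 4 had an unadjusted p under 0.05 and DESeq2 called 2 higher and 1 lower. Of all genes, 7530 had an unadjusted p under 0.05, and DESeq2 called 1022 higher and 1128 lower. Catsper2 had 267, 770 and 180 counts in INSL3-KI against 97, 85 and 73 in WT (2.31 ± 0.62, adjusted p = 0.03), and Catsperd 49, 361 and 78 against 26, 18 and 25 (2.88 ± 0.86, 0.041). Kcnu1 had 28, 29 and 36 against 26, 32 and 34 (0.01 ± 0.34, adjusted p = 0.99).
INSL3-KI replicate 2 held the highest count of Catsper2 and of Catsperd, and it alone had counts of Catsperb (329) and Slc9c1 (220), where the other two INSL3-KI libraries had 0. It did not have more Catsper1 (0), Catsper3 (6) or Catsper4 (0) than its neighbours. Without it Catsper2 was at 1.32 and Catsperd at 1.37. The libraries labelled INSL3-KO had 262, 214 and 232 counts of Catsper2, called higher than WT across the tables (1.33 ± 0.21, adjusted p = 0.0017, with 5.44% called higher), a call that was lost without INSL3-KO replicate 1 or 3. Spermatocyte markers summed to 762.9 to 771.5 CPM in these libraries, against 122 to 174.6 in WT, and a list of 8 epididymis genes summed to 83.24 to 89.97 CPM against 0 to 41.79 in WT and 0.1538 to 81.16 in INSL3-KI. Nearly all of that sum was Crisp1 (85.9 ± 3.53 CPM, SD, n = 3), and 5 of the 8 genes were at 0 in all 3 libraries labelled INSL3-KO. The part of spermatocytes or of other tissue in these values was not tested. Between INSL3-KI and the libraries labelled INSL3-KO, Hvcn1 alone was called (−2.06 ± 0.21, 1.16% called lower).

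The effect of INSL3-KI at P40 differed from that at P8 for 5 members in an interaction test within 1 table. The difference was lower for Catsper2 (−5.74 ± 1.08), Catsper3 (−9.08 ± 1.06), Catsperd (−6.16 ± 1.33) and Kcnu1 (−6.05 ± 0.20), where 22.5% of 17354 genes were called lower, and higher for Hvcn1 (4.15 ± 0.65), where 23.2% were called higher. Without INSL3-KI P8 replicate 2, these were −4.77 for Catsper2 and −4.68 for Catsperd, and both kept their calls. Catsper1, undetected at P8, gave no estimate. Catsper3 had at most 9 counts in these P8 libraries and was too low to be tested there. Its difference therefore mostly restates that at P40 (−8.58), since a fall at P8 could not have been seen.

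The remaining CatSper subunits fell into the same patterns. Of 10 listed genes 8 were in both tables, and 3 of 8 were called lower in INSL3-KI at P40 (list median −3.23, with 22.1% of all genes called lower), 2 of 8 at P23 (−1.19, 11.8%) and 8 of 8 in INSL3-KO at P23 (−8.06, 33.4%). None was called higher in these comparisons. Efcab9, which encodes a calcium sensor of the channel, had a level in INSL3-KI at P40 of 0.554%, 0.503% and 0.440% of WT and fell by 7.58 ± 0.20 on the log2 scale. Tmem262 stood at 0%, 0.592% and 0.868% and fell by 7.47 ± 0.57. Efcab9 and Tmem262 were also the ones called at P23, by −4.06 ± 0.76 and −3.94 ± 0.56.
Catsperz, another auxiliary subunit, stood at 24.1%, 2.44% and 3.18% of WT (−3.32 ± 0.92, adjusted p = 0.017). Slco6c1 stood at 29.1%, 2.79% and 3.56%, C2cd6, needed for CatSper to reach the flagellum, at 29.0%, 4.40% and 4.43%, and Catspere2 at 63.8%, 9.48% and 10.3%, and none of these passed the test. Catsperg1 (−3.47 ± 0.81, adjusted p = 0.0085) and Catsperg2 (−3.13 ± 0.89, 0.018) are near-identical copies, so that the division of reads between them is uncertain. As with the 9 members, 2 of these subunits were nearly absent in every INSL3-KI library and the others were kept in replicate 1.

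Of 29 genes for other sperm ion transport and its signalling, 27 were tested. In INSL3-KI at P40 12 were called lower and 3 higher (list median −2.41), where 22.1% and 25.6% of all genes were. In INSL3-KO at P23 17 were lower and 4 higher (−3.08), where 33.4% and 31.1% of all genes were. In INSL3-KI at P23 7 were lower and 2 higher (−0.46), where 11.8% and 8.81% of all genes were. Lrrc52, the auxiliary subunit of the SLO3 channel, stood at 1.39%, 0% and 0.486% of WT in INSL3-KI at P40 and fell by 7.27 ± 0.72. Atp1a4, the sperm-specific sodium pump subunit, stood at 0.606%, 0.0377% and 0.0992% and fell by 8.64 ± 1.21. The aquaglyceroporin Aqp7 fell by 7.67 ± 0.71 and the carbonic anhydrase gene Car2 fell by 7.13 ± 0.23. Lrrc52 had 0 counts in all 3 INSL3-KO libraries at P23, where Kcnu1 kept 89 to 107.
Adcy10, the soluble adenylyl cyclase that makes cyclic AMP in sperm, stood at 10.8%, 1.53% and 1.67% and was called lower (−4.40 ± 0.87), while Prkaca, the catalytic subunit of protein kinase A, stood at 90.1% to 99.0% (−0.01 ± 0.13, adjusted p = 0.94). The anion transporter Slc26a8 (32.1%, 4.20% and 4.55%) and the exchanger Slc9b1 (29.5%, 4.30% and 4.80%) were kept in replicate 1 and did not pass the test. Aqp8, a water channel of Sertoli cells, rose by 1.84 ± 0.18, as did Trpv4 (1.46 ± 0.30) and Slc8a1 (1.30 ± 0.25), relative to the median of all genes. Scaling on Sertoli cell genes moved that median from 0.09 to −2.14, by more than any of these 3 rises.

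Hvcn1 went its own way. In WT it had 206, 317 and 334 counts at P8, 338, 348 and 382 at P23 and 39, 13 and 50 at P40. In INSL3-KI it had 150, 88 and 132 at P8, 48, 56 and 177 at P23 and 222, 441 and 540 at P40. In the libraries labelled INSL3-KO it had 560, 482 and 606 at P8 and 856, 782 and 802 at P23. At P40, where both groups are in the same table, all 3 INSL3-KI libraries were above all 3 WT libraries, the reverse of the other 8 members, and Hvcn1 was called higher (8.01-fold, SE 0.54 on the log2 scale, adjusted p = 0.0031). The log2 fold change was 0.69 (adjusted p = 0.2) when scaled on Sertoli cell genes. Without WT replicate 1 or 3 the adjusted p was 0.012 or 0.011 and the call was lost. In INSL3-KO at P23 it differed from WT by 0.52 ± 0.12 (adjusted p = 0.002), below the fold threshold, and scaled on Sertoli cell genes this difference was −2.17.
Macrophage markers were higher in INSL3-KI at P40 and in INSL3-KO at P23 than in WT. The 12 markers summed to 170.5 to 240.3 CPM in WT at P40 and 597.1 to 831.7 in INSL3-KI, with all 12 called higher, led by Lyz2, Mrc1 and Csf1r, and to 226.2 to 233.3 in WT and 1273 to 1321 in INSL3-KO at P23, with 11 of 12 called higher. None of the 12 was at 0 in any group. They did not follow Hvcn1 in every comparison. In INSL3-KI at P23 they summed to 264.7 to 512.6 CPM, above WT, while Hvcn1 was called lower, across the tables. In WT from P8 to P40, within the first table, Hvcn1 fell, and the markers summed to 113.2 to 245.5 CPM at P8. Their median log2 fold change at P40 was 1.82, and scaling on Sertoli cell genes moved the median of all genes by more, from 0.09 to −2.14. B cell markers (6 genes) summed to 2.226 to 2.591 CPM in INSL3-KI at P40, below the 13.39 to 18.59 of WT, a sum made up mostly of Pax5. Sertoli cell markers were at 369%, 530% and 502% of WT in INSL3-KI at P40. The part of these cells in the level of Hvcn1 was not tested.

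The share of Hvcn1 in the counts of Hvcn1 and Tctn1, the gene that overlaps it on the other strand, also differed by table. It was 26.5% to 33.4% in WT at P23 and 64.3% to 71.6% in both INSL3-KO groups, all in the second table. In the first it was 21.1% to 25.1% in WT at P8, 4.51% to 12.5% in INSL3-KI at P8 and 1.54% to 7.26% in INSL3-KI at P23. At P40, also in the first, it was 0.582% to 2.10% in WT and 7.68% to 22.5% in INSL3-KI. The tables did not overlap in this share, but groups within a table lay further apart than 25.1% and 26.5%. The CPM of Hvcn1 itself did overlap, with 5.81 to 13.21 in INSL3-KI at P40 and 10.67 to 13.27 in the P8 libraries labelled INSL3-KO. Tctn1, a gene of the ciliary transition zone, was at 33.6 ± 3.69 CPM (SD, n = 3) in WT at P23 and 85.4 ± 6.43 at P40. The lower level of Hvcn1 in INSL3-KI than in WT at P23 and its fall from P23 to P40 in WT therefore cross both a table boundary and an opposite shift in Tctn1, and genotype or age and table cannot be told apart there. Within the first table at P40 the share was 7.68%, 18.6% and 22.5% in INSL3-KI, above every WT library. Tctn1 shifted the opposite way there too, with 54.5 ± 13.3 CPM in INSL3-KI, below WT, so the higher share holds both changes. The part of the overlap in the level of Hvcn1 was not tested.

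**Figure D5:**
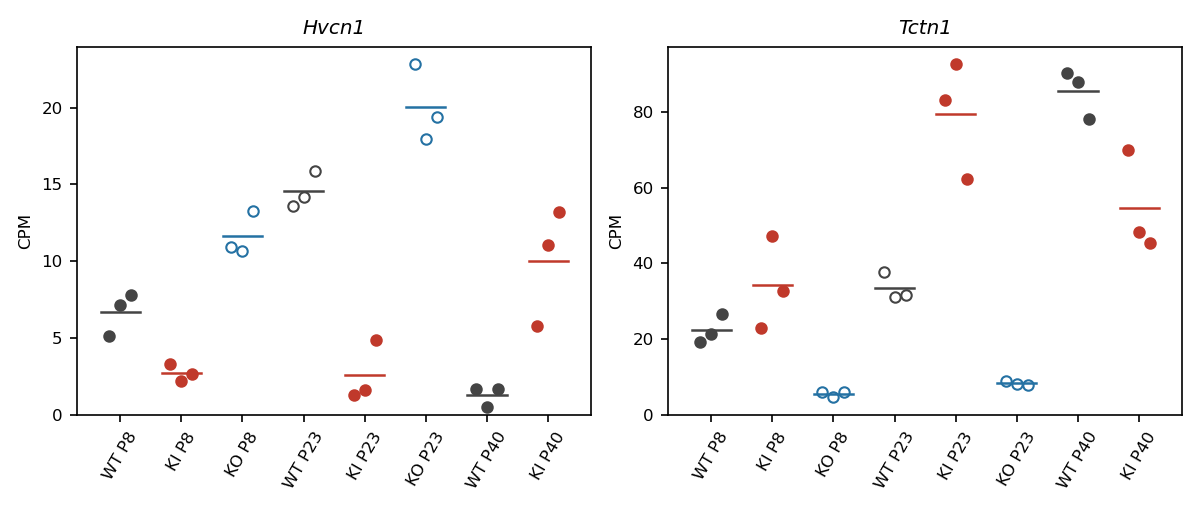
Levels of Hvcn1 and of Tctn1, which overlaps it on the opposite strand, in each library as CPM; bars are means of 3, filled symbols are libraries of the first count table and open symbols those of the second, and WT is grey, INSL3-KI red and INSL3-KO blue. Hvcn1 is highest in INSL3-KO at P23, and at P40 all 3 INSL3-KI libraries are above the WT libraries.

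Genes whose log2(CPM + 1) followed each member most closely were sought across the 15 testis libraries of the first table. Pearson's r is here a description over libraries that share 5 groups. These libraries include ones on which the division of the members was made, so the values are no separate test of it. Catsper1 was followed by Cpa5, Lrrc52 and G6pd2 (0.999 to 1.000), Catsper3 by G6pd2, Zfp474 and Tex29 (0.999), Catsper4 by Spaca4, Dusp13 and Spata46 (0.999) and Kcnu1 by Fam83e, Ttc23l and Satl1 (0.998 to 0.999). Catsper2 was followed by Xrra1 and Ccdc181 (0.998 to 0.999), Catsperd by Fam227b, Agbl4 and Ccpg1os (0.998 to 0.999), Catsperb by Slco6c1, Stpg4 and Cfap70 (0.999) and Slc9c1 by Trim69, Cmtm2b and Adam18 (0.999). Such values were common, since for each of these 8 members between 1044 and 1527 of 14418 genes exceeded 0.95. For Hvcn1 the closest were Gpx1, Clip3 and Tap2 (0.976 to 0.978), and 35 genes exceeded 0.95. Among the members, Catsper1 and Catsper3 followed each other at 1.00, as did Catsper2 and Catsperd. Catsper1 and Catsperb stood at 0.82, but Catsper4 stood at 0.92 with Catsper2 and at 0.91 with Catsperd. Hvcn1 was negative with every other member (−0.56 to −0.76).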

How the data were processed

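Total RNA of testis was sequenced as paired reads from mRNA libraries, in 3 libraries per group. The authors aligned reads with HISAT2 to GRCm38, as the submitters' processing notes give it, and deposited gene counts and FPKM in 2 tables. The counting program and its strand setting are not given in the sources used here. The tables were joined on 21561 shared Ensembl genes (94.2% to 97.9% of each library's counts). The deposited counts were scaled by TMM and tested in edgeR 4.0.16 (R 4.3.3) with the quasi-likelihood test, each comparison on its own groups, after filterByExpr (minimum count 10, minimum total 15). A call needed a change of 2-fold or more with a Benjamini-Hochberg adjusted p below 0.01. The deposited FPKM served to compare genes and, with limma 3.58.1, as log2(FPKM + 1) and log2(FPKM + 0.1). DESeq2 1.42.0, other scalings, no filter, a replicate block, 1 fit over all groups and leaving out each library were alternatives, and WT P40 as reference was added after seeing the data. The fits were tested on simulated data. Genes of both ion channel lists could be named, with the 3 genes most like each member (1 of them is not reported here) and the 3 highest markers of a list. The members and the 12 lists were chosen with earlier results of these data known. The p-values measure the spread between these samples. Neutrophil markers summed to at most 7.255 CPM. Leydig cell markers summed to 1070 to 1202 CPM in WT and 1803 to 2095 in INSL3-KI at P40. Of 12 spermatogonia markers, 6 were called higher and none lower in INSL3-KI at P40 (median 1.18). Their sum went the other way, with 507 to 726.4 CPM in INSL3-KI and 1235 to 1316 in WT. Most of the WT sum was Dmrtb1, at 1005 ± 37.4 CPM in WT and 151 ± 146 in INSL3-KI (SD, n = 3).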

Additional observations from a re-analysis of the deposited data

Results flagged for a closer look

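The effect of INSL3-KI differed between P8 and P40 in an interaction test of edgeR for 5 members. The log2 difference was −5.74 for Catsper2, −9.08 for Catsper3, −6.16 for Catsperd and −6.05 for Kcnu1, and 4.15 for Hvcn1.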

How the results depend on the processing

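Over the alternatives other than leaving out a library, 144 of the members' counts of calls stayed within 1.5 times their main value and 22 moved. With 1 library left out, 157 stayed and 23 moved. The 8 members lower in INSL3-KO at P23 stayed 8 in every leave-one-out fit.

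For INSL3-KI against WT at P40, 1 member was higher, and 0 when scaled on Sertoli cell genes. Leaving out 1 library gave 3 to 8 lower (main 5) and 0 to 1 higher. For INSL3-KO against WT at P23, where none was higher, library size alone and limma on log2(FPKM + 0.1) each gave 1, and Hvcn1 was −2.17 on Sertoli scaling. For INSL3-KI against WT at P8, where none was called, 1 fit over all groups gave 1 higher and DESeq2 gave 2 higher and 1 lower. Kcnu1 there was −0.06 in 1 fit, −0.16 on Sertoli scaling, −0.05 and −0.04 by limma with pseudocounts of 1 and 0.1, and −0.10 to 0.10 with 1 library left out. For INSL3-KI against WT at P23 (main 3 lower), DESeq2 gave 7, Sertoli scaling 1 and WT P40 as reference 0, with Hvcn1 at 1.01 in the last, and leaving out 1 library gave 0 to 6. For the libraries labelled INSL3-KO against WT at P8 (main 1 higher), library size alone and DESeq2 gave 2, 1 fit and Sertoli scaling 0, and leaving out 1 library 0 to 1. For INSL3-KI against INSL3-KO, leaving out 1 library gave 5 to 8 higher and 0 to 1 lower at P23, and at P8 −0.03 to 1.35 for Catsper2 and −0.03 to 1.95 for Catsperd. From P8 to P23 in INSL3-KI (main 3 higher), library size alone gave 5, 1 fit 8 and DESeq2 6, leaving out 1 library gave 0 to 6, and Hvcn1 ranged from −0.90 to 0.11. From P23 to P40 in INSL3-KI, 1 fit gave 5 lower and 1 higher and DESeq2 3 lower. From P8 to P23 in INSL3-KO, 1 fit gave 0 higher, leaving out 1 library 2 to 3 (main 3), and Catsper2 ranged from −0.23 to 0.11. Kcnu1 from P23 to P40 in WT ranged from −0.09 to 0.09, and the interaction of Catsperb from −12.31 to 0.42, with 4 to 7 members lower in the interaction. The cause of these shifts was not tested.

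Replicate numbers did not pair the libraries, since no comparison had all 3 same-numbered pairs correlated above 0.1. With the replicate block, 0 members were higher in INSL3-KI at P40 in place of 1, and 6 were higher from P8 to P23 in INSL3-KI in place of 3. In INSL3-KI against WT at P8 it left 1 gene lower and 5 higher of all genes, against 511 and 476.

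Over all genes, calls at P40 were 3690 lower and 4264 higher, 2458 and 6583 by library size alone, and 11949 and 26 on Sertoli scaling. In INSL3-KO at P23 they were 5584 and 5199, against 13160 and 80 on Sertoli scaling. Of all calls at P40, 53.6% were higher, 72.8% by library size alone, 42.7% by DESeq2 and 0.217% on Sertoli scaling. Members with counts near 0 in a group are limited by depth, and their size is given as a bound or with a counting interval.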
